A study of Mus musculus with 3 samples.

Results

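Bulge-type keratinocytes of mouse ear skin were taken as the cells with at least 1 UMI, a counted RNA molecule, of 2 or more of the 7 genes Sox9, Fst, Ctgf, Lgr5, Cd34, Wif1 and Aspn. Cells with 5 or more UMIs of Krt79 and Defb6 together, or with 1% or more of their UMIs from Lor, were held apart. The rule found 128 cells among 5340 kept cells (2.40%), of which 35 came from replicate 1, 48 from replicate 2 and 45 from replicate 3. The mice were C57BL/6N, aged 9 weeks, and single cells of their ear epidermis were profiled in 3 libraries of a single group, with no treatment or mutant allele named in the labels. The labels name neither the sex of the mice nor the animals behind each replicate, so that all p-values measure only the spread between these libraries. Per the labels' protocols, the epidermis was lifted off the dermis with dispase, cells were loosened with trypsin and EDTA and collected from its basal side, and the suspension was frozen before library preparation. The bulge-type cells were set beside 2064 resting basal cells, 120 cells with 5 or more UMIs of Krt79 and Defb6 (called Krt79/Defb6-high cells here), 2032 spinous cells and 425 granular cells of the same libraries. Another 571 kept cells fell in no class.

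The bulge is the part of the outer root sheath, below the sebaceous gland, where the stem cells of the hair follicle reside. These cells are held out of division for much of the hair cycle by BMP signals and are called to growth when Wnt and hedgehog signals prevail. In mouse skin they are known for the surface protein CD34, the R-spondin receptor LGR5, the keratin KRT15 and the transcription factors SOX9, LHX2, NFATC1 and TCF3 (Tcf7l1). The interfollicular epidermis around the follicles has its own basal layer, which gives rise to spinous and then granular cells.

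The libraries held 1108, 2477 and 2493 barcodes and 15926683, 24480473 and 28176712 UMIs, in the order of replicates 1 to 3, which is kept throughout. The share of bulge-type cells was 3.71% in replicate 1 (95% exact binomial interval 2.60% to 5.12%), 2.17% in replicate 2 (1.60% to 2.87%) and 2.06% in replicate 3 (1.51% to 2.75%), a mean of 2.65% ± 0.921 (SD, n = 3), and these intervals cover counting error only. Bulge-type cells were shallow, with a median of 6309, 3553.5 and 4297 UMIs per cell, against 11670, 7351 and 8176 in resting basal cells and 21004.5, 13546.5 and 14922.5 in spinous cells. Their median mitochondrial share was 6.01%, 5.95% and 5.11%, against 4.95%, 4.76% and 4.62% in resting basal cells. The part of these gaps in the differences below was not tested, other than by thinning cells to 3000 UMIs and by a mitochondrial limit of 5%. The thinning left out shallower cells and applied the class rules to the thinned counts, which left 25, 27 and 28 bulge-type cells and 4, 11 and 32 Krt79/Defb6-high cells, and the 4 of replicate 1 were under the 10 cells asked of a profile. In a second form, added after the data were seen, the classes were kept as in the full counts and then thinned, with 32, 32 and 38 bulge-type cells and 18, 23 and 75 Krt79/Defb6-high cells. Pairs of libraries shared 3, 4 and 9 barcodes, of which 0 belonged to bulge-type cells. Scrublet marked 33 of the kept cells as doublets, of which 0 were bulge-type cells.

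**Figure D1:**
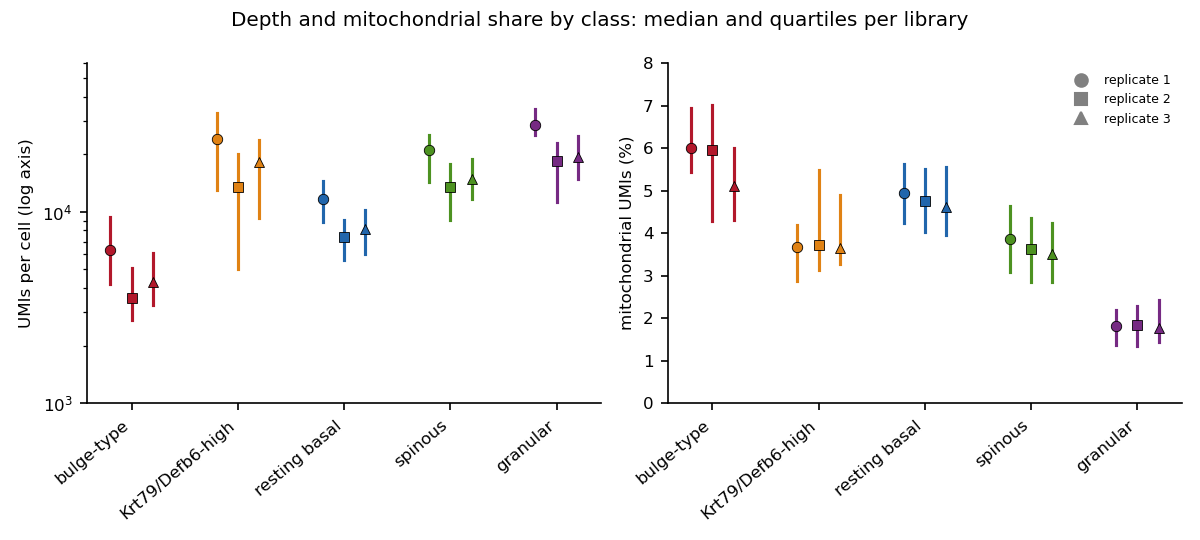
UMIs per cell (left, log axis) and mitochondrial UMIs in percent (right) for the 5 classes, with 1 point per library at the median and a line from the lower to the upper quartile. In every library the bulge-type cells had the lowest median depth, between 3553.5 and 6309 UMIs, and the highest median mitochondrial share, between 5.11% and 6.01%.

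Of the 5 markers given for this cell type (Sox9, Fst, Lgr5, Cd34 and Krt17), all were detected among the bulge-type cells, but 4 of them belong to the rule. Sox9, which specifies follicle stem cells, had a UMI in 81.2% of the bulge-type cells, against 1.41% of resting basal cells. Fst, encoding the activin antagonist follistatin, had a UMI in 60.2%, against 0.775%, and Ctgf, a matricellular CCN protein, in 65.6%, against 0.145%. Lgr5 had a UMI in 37.5% of the bulge-type cells, against 0 of 2064 resting basal cells, which allows up to 0.145% of cells with a UMI and sets no limit on cells expressing the gene, and 0.0492% of the deeper spinous cells. Cd34 had a UMI in 34.4%, against 0.0969% of resting basal cells, the Wnt antagonist Wif1 in 21.1%, and the proteoglycan Aspn in 10.9%. These shares follow from the rule and are given as a description. The 14 bulge markers outside the rule were all detected in the bulge-type, Krt79/Defb6-high and resting basal cells, with summed levels in the bulge-type cells of 8170, 5781 and 5263 CPM (counts per profile scaled to the same total), against 1327, 1543 and 1518 CPM in resting basal cells. Krt15 gave 1987 and Krt17 gave 1903 of the 4802 UMIs in that sum for the bulge-type cells, so it mainly describes these keratins.

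The rule was met in different ways. Of the 128 cells, 50 had exactly 2 of the rule genes, 35 had 3, 25 had 4, 15 had 5 and 3 had 6. The most frequent sets were Sox9 with Fst (20 cells), Sox9 with Ctgf (13 cells), Sox9 with Fst and Ctgf (10 cells) and these 3 genes with Lgr5 and Cd34 (9 cells). Lgr5 and Cd34 occurred together in 26 cells, Lgr5 without Cd34 in 22 and Cd34 without Lgr5 in 18, while 62 cells had a UMI of neither. All 14 cells with Aspn also had Sox9, and 1 of them had Lgr5.

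Cells just outside the rule had a UMI of a single rule gene and numbered 17, 33 and 36, most often with Sox9 (53 cells) or Fst (21 cells). Krt15 stood at 3501, 3627 and 2746 CPM in the bulge-type cells with 3 or more rule genes and 1720, 1621 and 2136 CPM in those with exactly 2, against 400.2, 338 and 709 CPM just outside. Lhx2 stood at 226, 219 and 253 CPM with 3 or more rule genes and 64.5, 59.6 and 55.5 CPM with 2, against 18.03, 3.097 and 27.3 CPM outside. Ly6d, a surface protein abundant in interfollicular keratinocytes, ran the other way, at 932, 2270.1 and 1399.6 CPM with 3 or more rule genes and 2036, 5136 and 3698 CPM with 2, against 6490.4, 6114 and 5763 CPM outside. The median depth was 6875, 3340.5 and 5692 UMIs with 2 rule genes, against 14642, 6256 and 7809 UMIs outside.

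The comparison of bulge-type with resting basal cells asks which genes set the cells of the rule apart from the resting basal class. Not all cells that meet the rule need be bulge cells, and they are split further below by a UMI of Lgr5 or Cd34. That split was made after values were seen, so p-values given for the cells with Lgr5 or Cd34 alone are a description. UMIs were summed per library and class, and levels below are CPM on edgeR's TMM scale unless called plain CPM, which are scaled by the total UMIs of the profile alone, as are the values above. Of 10941 genes tested with edgeR's quasi-likelihood test (Benjamini-Hochberg adjusted p under 0.05), 777 were higher in the bulge-type cells (7.1% of the genes tested) and 667 were lower (6.1%), 13.2% in all. The low-count filter works on CPM, and bulge-type profiles held 245783 to 258216 UMIs, against 4416739 to 6901223 in resting basal cells. A gene with few UMIs in other classes could therefore enter the test through the bulge-type cells alone, and could then hardly be called lower. List counts of rises below include genes with few UMIs in resting basal cells, such as Fstl1, Fgf18 and Gli1. With no low-count filter, 907 of 17679 genes were higher and 836 lower. Without TMM scaling the calls were 1092 higher and 345 lower, with DESeq2 they were 1051 and 490, and the median log2 difference of all genes was 0.19 in place of -0.04, so differences of about that size depend on the scaling. With the classes chosen on 50% of each cell's UMIs and levels taken from the rest, 375 genes were higher and 355 lower. Without replicate 2 the counts were 439 higher and 353 lower, without replicate 3 they were 499 and 361, and without replicate 1 they were 561 and 409.

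Transcription factors of the bulge and follicle were mostly higher: 14 of 22 tested rose and 5 fell, with a median log2 difference of 1.54, against a median of -0.04 over all genes tested (2 to 4 fell where a library was left out). Lhx2, a LIM-homeodomain factor that maintains follicle stem cells, stood at 95.3, 118 and 126 CPM in bulge-type cells and 1.15, 0 and 0.727 CPM in resting basal cells (log2 difference 7.53 ± 0.46, adjusted p = 7.6e-10). It had a UMI in 48.4% of bulge-type cells, against 0.388% of resting basal and 0.64% of spinous cells, and no library of the bulge-type cells came near any of the resting basal cells. Barx2, a homeobox factor of the follicle, stood at 202, 215 and 259.8 CPM, against 6.89, 9.42 and 10.8 CPM (log2 difference 4.62 ± 0.24, adjusted p = 1.5e-11). Runx1, a runt-domain factor that promotes activation of follicle stem cells, stood at 52.0, 109 and 45.7 CPM, against 0.957, 0.273 and 1.21 CPM (log2 difference 6.31 ± 0.45, adjusted p = 1.8e-09). The groups were far apart for all of these genes. Foxc1, known to keep activated stem cells able to return to rest, stood at 37.6, 46.0 and 59.9 CPM, against 0.191, 1.37 and 0.727 CPM (log2 difference 5.83 ± 0.53, adjusted p = 8.8e-08). Tbx1, a T-box factor needed for stem cell renewal over repeated hair cycles, stood at 86.7, 86.2 and 59.9 CPM, against 9.57, 9.01 and 11.6 CPM (log2 difference 2.91 ± 0.31, adjusted p = 7.2e-07). The vitamin D receptor gene Vdr, required for the hair cycle, stood at 95.3, 109 and 106 CPM, against 29.1, 27.0 and 30.6 CPM (log2 difference 1.84 ± 0.16, adjusted p = 5.4e-08), without overlap. Nfatc1, which keeps bulge cells quiescent, rose by a log2 difference of 3.22 ± 0.28 (adjusted p = 3.9e-08). Among the cells with Lgr5 or Cd34 taken alone its difference was smaller and not called (1.60, adjusted p = 0.156), with a UMI in 8 of those cells.

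Factors that the interfollicular epidermis also uses were among the 5 of the list that fell, and Klf5 and Gata3 are given as examples. Klf5, an epidermal Krüppel-like factor, fell to 139, 198 and 97.1 CPM in bulge-type cells, against 279.9, 295 and 328 CPM in resting basal cells (log2 difference -1.05 ± 0.20, adjusted p = 0.00081). Gata3, a factor of the inner root sheath and the epidermis, fell to 118, 132 and 117 CPM, against 243, 271 and 280.0 CPM (log2 difference -1.11 ± 0.16, adjusted p = 5.0e-05). Each bulge-type library lay below each resting basal library for both genes. Nfib, known in the mouse bulge for restraining neighbouring melanocyte stem cells, was higher at 491, 577 and 574 CPM, against 237, 264 and 254 CPM (log2 difference 1.12 ± 0.12, adjusted p = 1.4e-06), while the related Nfix stood at 399, 391 and 394 CPM, against 445, 461 and 499 CPM, and did not pass the test (adjusted p = 0.24).

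**Figure D2:**
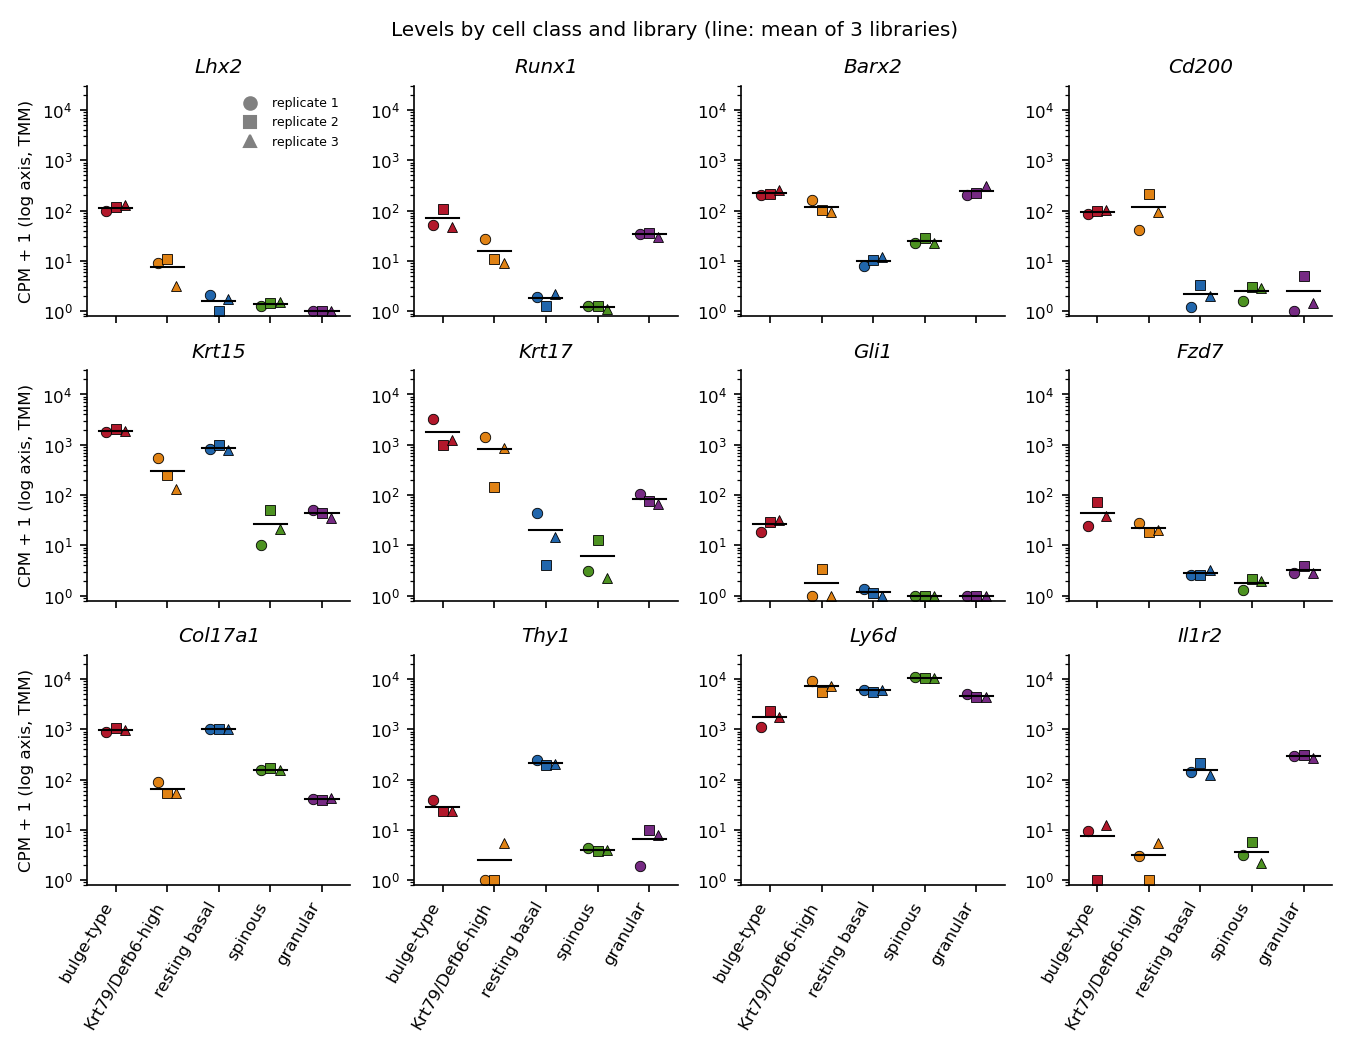
Levels of 12 genes in the 5 classes, as TMM-scaled CPM + 1 on a log axis, with 1 point per library and a line at the class mean. Lhx2 and Gli1 are highest in the bulge-type cells, Barx2 is as high in granular cells, Col17a1 is level between bulge-type and resting basal cells, and Thy1 is highest in resting basal cells.

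How reads shared by the close paralogs Krt14, Krt16 and Krt17, or by Krt6a and Krt6b, were counted is not stated in the labels, so the levels of these keratin genes are uncertain. Of 6 follicle keratins tested, 4 rose (median log2 difference 2.85), and another 5 of the 12 listed had too few UMIs to be tested. Krt15, the keratin most used to mark the bulge, stood at 1768, 2102 and 1835 CPM in bulge-type cells and 806, 992 and 801 CPM in resting basal cells (log2 difference 1.14 ± 0.35, adjusted p = 0.031). All bulge-type libraries lay above all resting basal libraries, but the call was lost without replicate 2 (1.15, adjusted p = 0.125) and without replicate 3 (1.12, adjusted p = 0.148). In interfollicular basal cells Krt15 was widespread, with a UMI in 85.2% of resting basal cells, against 90.6% of bulge-type cells and 8.37% of spinous cells. Krt17, a keratin of the outer root sheath, stood at 3218, 994 and 1265 CPM, against 42.5, 3.00 and 13.4 CPM (log2 difference 6.68 ± 0.68, adjusted p = 4.5e-07), but few cells carried it, as described below. Krt6a, a keratin of the companion layer, stood at 127, 57.4 and 82.8 CPM, against 1.91, 5.19 and 4.60 CPM (log2 difference 4.43 ± 0.48, adjusted p = 1.9e-06), from 14 cells, of which 1 held 45.2% of its UMIs. The basal keratin genes Krt5 and Krt14, which belong to the rule of the resting basal class, stood at 2637, 1987 and 2552 CPM and 3671, 1964 and 3657 CPM in bulge-type cells, against 4509, 3901 and 4738 CPM and 13994, 11609 and 13035 CPM in resting basal cells, given without a test. Of the bulge-type cells, 80 reached the 0.5% of UMIs from Krt5 and Krt14 that was asked of a basal cell.

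Surface and matrix genes of the bulge were higher for 9 of 17 tested and lower for 2, with a median log2 difference of 1.47 (7 and 1 without replicate 2). The examples that follow are rises and a gene not called, and the 2 falls are not among them. Cd200, which encodes an immune-inhibitory surface protein of the bulge, stood at 83.8, 97.6 and 99.9 CPM in bulge-type cells and 0.191, 2.32 and 0.969 CPM in resting basal cells (log2 difference 6.31 ± 0.42, adjusted p = 7.0e-10). Itgb8, an integrin subunit that activates TGF-beta, stood at 23.1, 17.2 and 25.7 CPM, against 0, 0.546 and 0.484 CPM (log2 difference 5.78 ± 0.68, adjusted p = 5.8e-06). The heparin-binding factor gene Ptn stood at 627, 342 and 628 CPM, against 139, 111 and 143 CPM (log2 difference 1.99 ± 0.22, adjusted p = 1.3e-06). The groups did not overlap for any of them. Sparc, a matricellular protein, stood at 104, 161 and 143 CPM, against 59.0, 38.4 and 51.2 CPM (log2 difference 1.48 ± 0.19, adjusted p = 7.4e-06). Tgm5, encoding a transglutaminase and named here after its values were seen, stood at 168, 121 and 188 CPM, against 0.383, 0.956 and 1.09 CPM (log2 difference 7.50 ± 0.28, adjusted p = 1.1e-13), with a UMI in 53.9% of bulge-type, 0.727% of resting basal and 10.0% of spinous cells. Postn, which encodes periostin and is often listed for the bulge, stood at 219.5, 233 and 231 CPM, against 179.6, 217 and 322 CPM, with overlapping libraries and no call (adjusted p = 0.94).

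Among all genes called, the largest rises were in genes all but absent from resting basal cells. Shisa2, of a family known from frog embryos for holding back Wnt and FGF receptors in the cell, stood at 37.6, 51.7 and 79.9 CPM and had 0 UMIs in resting basal cells, at least 392-fold higher against a floor of 3 UMIs over the 3 libraries. Cald1, encoding the actin-binding caldesmon, stood at 34.7, 40.2 and 17.1 CPM against 0 UMIs, at least 212-fold higher. Neither gene had a UMI in a resting basal cell of any library. Wfdc3, a WAP-domain gene, stood at 86.7, 123 and 194 CPM, against 0, 0 and 0.484 CPM (log2 difference 9.32 ± 0.45, adjusted p = 2.3e-11). Sema3e, an axon guidance ligand, stood at 75.1, 146 and 62.8 CPM, against 0, 0 and 0.484 CPM (log2 difference 8.74 ± 0.53, adjusted p = 1.4e-10). Pthlh, encoding parathyroid hormone-related protein, stood at 78.0, 31.6 and 194 CPM, against 0, 0.410 and 0.363 CPM (log2 difference 8.26 ± 0.63, adjusted p = 1.8e-08), and its level differed several-fold between the libraries of bulge-type cells. Bdnf, a neurotrophin, stood at 37.6, 37.3 and 51.4 CPM and had 3 UMIs in resting basal cells, a ratio of 292 (counting interval 93.6 to 1471). Serpinb11, a clade B serpin, had 2 UMIs there and a ratio of 757 (counting interval 202 to 6362), Col8a2, a short-chain collagen, 1 UMI and a ratio of 916 (counting interval 156 to 36961), and Cgnl1, a junction protein, 3 UMIs and a ratio of 365 (counting interval 119 to 1825). Intervals on these ratios are exact counting intervals at 95% and hold no spread between libraries. Cck, encoding cholecystokinin, had a ratio of 438 (counting interval 70.8 to 18082) from 9 cells, with 40.9% of its UMIs in a single cell, and 6330403K07Rik had a ratio of 538 (counting interval 88.6 to 22016) from 11 cells, with 44.4% in a single cell. Timp2, a metalloproteinase inhibitor, rose by a log2 difference of 7.61 ± 0.67 (adjusted p = 4.8e-08).

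The same rule named Fn1 (fibronectin) and Col1a2 (a chain of type I collagen), which fibroblasts also make. Fn1 stood at 49.1, 43.1 and 40.0 CPM, against 0.574, 0 and 0.121 CPM (log2 difference 7.58 ± 0.62, adjusted p = 5.6e-07), from 13 cells, and Col1a2 at 26.0, 14.4 and 25.7 CPM, from 13 cells, a ratio of 458 (counting interval 74.4 to 18869). Of 7 fibroblast markers, 4 were detected in bulge-type cells, with summed plain levels of 419, 24.2 and 65.8 CPM, against 22.0, 0.157 and 0.58 CPM in resting basal cells. Those UMIs numbered 126, of which 71 lay in a single cell of replicate 1, and Col3a1, Lum and Col6a3 were at 0. Of 6 melanocyte markers, 5 were detected at 36.6, 68.5 and 174 CPM, against 5.89, 5.34 and 7.39 CPM, with 33 of 71 UMIs in a single cell and Mlana at 0. All 4 endothelial, 8 immune and 4 Merkel cell markers were at 0 in the bulge-type cells. Without the cells that held 3 or more UMIs of the fibroblast and melanocyte markers, 710 genes were higher and 618 lower, and both Fn1 and Col1a2 were still called. This left 31, 45 and 43 bulge-type cells. Of all bulge-type cells, 18 held a fibroblast marker UMI and 36 a melanocyte marker UMI, so cells with fewer such UMIs stayed in.

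The largest falls were in genes all but absent from the bulge-type cells. Bcl2l15, a BCL2-like gene, had 0 UMIs in bulge-type cells and stood at 25.1, 17.9 and 30.6 CPM in resting basal cells, at least 8.62-fold lower. Il1r2, which encodes the decoy receptor for interleukin 1, stood at 8.67, 0 and 11.4 CPM, against 137, 210.1 and 122 CPM (log2 difference -4.52 ± 0.46, adjusted p = 4.9e-07). Pyy, the gut hormone peptide YY, stood at 0, 5.74 and 8.56 CPM, against 25.5, 247 and 160.0 CPM (log2 difference -4.89 ± 0.63, adjusted p = 9.6e-06). Every library of bulge-type cells lay below every library of resting basal cells for these genes. Adamts1, a secreted protease, stood at 8.67, 8.62 and 20.0 CPM, against 164, 217 and 199.9 CPM (log2 difference -3.98 ± 0.40, adjusted p = 4.1e-07). Crispld2 and the semaphorin Sema3f fell by 3.78 ± 0.60 and 3.39 ± 0.52 on the log2 scale. The remaining 9 had 1 to 3 UMIs in the bulge-type cells and were lower by ratios between 10.5 (Mrc2, counting interval 2.89 to 86.9) and 41.4 (Slc4a8, 7.41 to 1638), the others being Gna14, Cpne2, Adam8, Cfap57, Slc2a5, Adamts14 and Bmp4.

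Wnt genes moved in both directions. Of 36 tested, 7 rose and 4 fell, a median log2 difference of 0.31, and the rises were in 4 frizzled receptors, 2 secreted modulators and in Ctnnb1, which encodes beta-catenin (log2 difference 0.97 ± 0.15, adjusted p = 6.2e-05). Fzd7, a frizzled receptor, stood at 23.1, 71.8 and 37.1 CPM in bulge-type cells and 1.53, 1.64 and 2.18 CPM in resting basal cells (log2 difference 4.57 ± 0.41, adjusted p = 7.4e-08). Fzd2 stood at 43.3, 68.9 and 45.7 CPM, against 3.06, 4.91 and 3.75 CPM (log2 difference 3.72 ± 0.34, adjusted p = 6.8e-08), and Fzd1 and Fzd3 rose by 2.11 ± 0.31 (adjusted p = 5.4e-05) and 2.76 ± 0.31 (adjusted p = 1.4e-06). Every bulge-type library lay above every resting basal library for these 4 receptors, whereas Fzd10 fell, a call that was lost without replicate 1 (-1.60, adjusted p = 0.0695) and without replicate 2 (-2.41, adjusted p = 0.0523). Dkk3, a divergent member of the Dickkopf family, stood at 43.3, 57.4 and 57.1 CPM, against 5.36, 8.74 and 6.42 CPM (log2 difference 2.94 ± 0.32, adjusted p = 1.3e-06). Sostdc1, an antagonist of Wnt and BMP ligands, stood at 898, 345 and 819 CPM, against 94.8, 69.4 and 77.1 CPM (log2 difference 3.04 ± 0.31, adjusted p = 4.5e-07). Replicate 2 was the lowest bulge-type library for Sostdc1 and still lay above all resting basal libraries. Among ligands, Wnt10a fell to 57.8, 43.1 and 82.8 CPM, against 128, 122 and 116 CPM (log2 difference -0.99 ± 0.19, adjusted p = 0.00077), and the agonist gene Rspo3 had 0 UMIs, against 12.6, 23.5 and 11.4 CPM, at least 5.56-fold lower. The Wnt target gene Axin2 stood at 20.2, 31.6 and 31.4 CPM, against 22.2, 28.8 and 25.3 CPM, with overlapping libraries and no call (adjusted p = 0.86). The remaining fall, of the ligand gene Wnt4, was lost without replicate 3 (-0.79, adjusted p = 0.181) and with the classes kept and thinned (-0.74, adjusted p = 0.0941). The list also held Lgr5 and Wif1, which chose the cells.

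Hedgehog genes were higher for 5 of 9 tested (median log2 difference 1.15), and the other 4 did not pass. Gli1, a transcription factor and target of the pathway, stood at 17.3, 28.7 and 31.4 CPM in bulge-type cells, against 3 UMIs in resting basal cells, a ratio of 179 (counting interval 55.2 to 923). Gli2, the main activator of hedgehog targets, stood at 37.6, 14.4 and 25.7 CPM, against 1.53, 1.23 and 0.969 CPM (log2 difference 4.32 ± 0.53, adjusted p = 5.2e-06). Gli1 had UMIs in 19 bulge-type cells spread over all 3 libraries. The co-receptor genes Gas1 and Boc rose by 1.15 ± 0.13 (adjusted p = 2.7e-06) and 1.96 ± 0.25 (adjusted p = 6.6e-06), and Gas1 stood at 248, 304 and 402 CPM, against 142, 125 and 164 CPM. Ptch1, the receptor and a target, stood at 14.4, 8.62 and 28.5 CPM, against 3.06, 5.60 and 4.84 CPM (log2 difference 1.93 ± 0.49, adjusted p = 0.0091). That call was lost without replicate 1 (1.82, adjusted p = 0.0519) and without replicate 3 (1.42, adjusted p = 0.259). Smo, the signal transducer, did not pass the test at 37.6, 28.7 and 48.5 CPM, against 37.1, 33.0 and 32.6 CPM (adjusted p = 0.81). The ligand genes Shh, Ihh and Dhh had 1, 0 and 0 UMIs in the bulge-type cells and were not tested.

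BMP, activin and TGF-beta genes were higher for 14 of 33 tested and lower for 3 (median log2 difference 0.90), with 9 and 2 calls without replicate 2 and 7 and 2 without replicate 3. Nog, encoding the BMP antagonist noggin, stood at 14.4, 46.0 and 31.4 CPM in bulge-type cells and 2.30, 0.819 and 1.09 CPM in resting basal cells (log2 difference 4.49 ± 0.59, adjusted p = 3.6e-05). Fstl1, a follistatin-like protein, had 15 UMIs against 0, at least 99.6-fold higher. Tgfb2, a TGF-beta ligand known to counteract BMP signals in mouse follicle stem cells, stood at 23.1, 28.7 and 59.9 CPM, against 5.93, 4.64 and 5.57 CPM (log2 difference 2.78 ± 0.45, adjusted p = 0.00022). Bulge-type libraries lay above resting basal libraries for these ligands and antagonists. Among targets of BMP signalling, Id1 stood at 194, 284 and 377 CPM, against 85.6, 132 and 183 CPM (log2 difference 1.11 ± 0.15, adjusted p = 2.0e-05), and Id2 at 63.5, 123 and 68.5 CPM, against 22.8, 22.1 and 26.5 CPM (log2 difference 1.83 ± 0.24, adjusted p = 1.3e-05). Id3 stood at 477, 649 and 725 CPM, against 507, 678 and 672 CPM, with no call (adjusted p = 0.99). Bmp4, a BMP ligand, had 2 UMIs in bulge-type cells, against 22.6, 24.0 and 20.0 CPM in resting basal cells, a ratio of 11.5 (counting interval 3.17 to 95.4). Tgfbr3, the co-receptor betaglycan, fell to 8.67, 11.5 and 5.71 CPM, against 46.3, 42.9 and 40.6 CPM (log2 difference -2.32 ± 0.39, adjusted p = 0.00021).

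FGF receptor genes did not all move the same way. In the FGF and EGF list 7 of 17 tested rose and 2 fell (median log2 difference 0.62), with 5 and 2 calls without replicate 2. Fgfr1 stood at 92.4, 94.8 and 137 CPM in bulge-type cells and 10.1, 13.9 and 9.81 CPM in resting basal cells (log2 difference 3.27 ± 0.24, adjusted p = 2.2e-09). Fgfr2, whose splice form in epithelia receives FGF7 and FGF10 from the dermis, fell to 109.8, 83.3 and 103 CPM, against 222, 227 and 205 CPM (log2 difference -1.15 ± 0.16, adjusted p = 3.2e-05). Fgfr3 fell with it, by 1.10 ± 0.20 on the log2 scale (adjusted p = 0.00048, 0.0562 with cells thinned to 3000 UMIs and 0.0488 with the classes kept). Fgf18, a ligand known for keeping mouse follicles at rest, had 15 UMIs against 2, a ratio of 149 (counting interval 34.7 to 1346). Lrig1, which dampens EGF receptor signals and marks stem cells of the upper follicle in mouse, stood at 86.7, 48.8 and 34.3 CPM, against 5.93, 6.01 and 4.72 CPM (log2 difference 3.31 ± 0.34, adjusted p = 4.9e-07), but it was not called among the cells with Lgr5 or Cd34 (1.56, adjusted p = 0.225). Of 8 IGF-binding proteins and receptors 2 rose and 3 fell, with 1 and 2 calls without replicate 1 and without replicate 3. Igfbp4 stood at 37.6, 161 and 123 CPM, against 10.3, 6.83 and 14.2 CPM (log2 difference 3.37 ± 0.34, adjusted p = 3.2e-07), while Igfbp3 stood at 14.4, 17.2 and 2.85 CPM, against 54.6, 77.4 and 88.0 CPM (log2 difference -2.69 ± 0.46, adjusted p = 0.00029). Igfbp2 fell by 1.98 ± 0.28 on the log2 scale. In the YAP, TEAD and CCN list 2 of 13 rose and 1 fell, where 7.1% of all genes tested rose and 6.1% fell. The list had a median log2 difference of 0.15, and its member Ctgf chose the cells. Tead1, which encodes a DNA-binding partner of YAP, rose by 1.24 ± 0.37 (adjusted p = 0.029), and Tead2 had 3 UMIs in resting basal cells and a ratio of 73.0 (counting interval 19.3 to 408). The YAP-binding gene Amotl1 fell to 23.1, 43.1 and 28.5 CPM, against 79.3, 95.8 and 97.2 CPM (log2 difference -1.52 ± 0.24, adjusted p = 0.00011). The call of Tead1 was lost without replicate 1 (adjusted p = 0.269), without replicate 2 (adjusted p = 0.161), in both forms of thinning (adjusted p = 0.433 and 0.639) and among the cells with Lgr5 or Cd34 (0.44, adjusted p = 0.802).

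**Figure D3:**
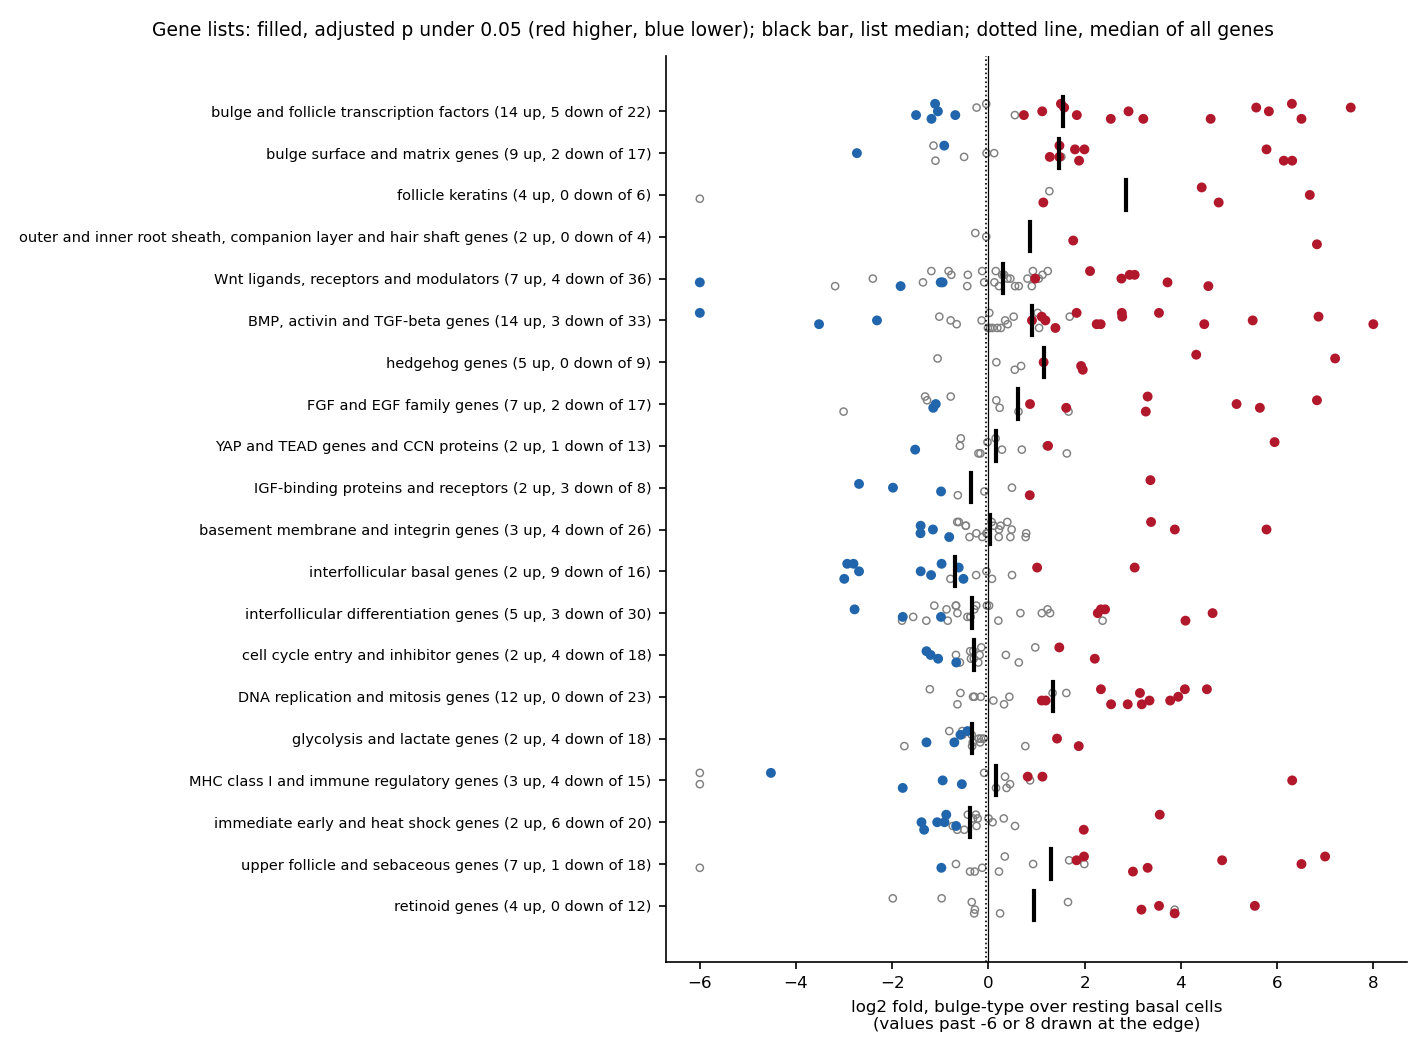
Log2 differences, bulge-type over resting basal cells, for the tested genes of 20 lists, with 1 point per gene (filled where adjusted p is under 0.05), a black bar at each list's median and a dotted line at the median of all 10941 genes (-0.04). The lists of follicle keratins and follicle transcription factors have medians of 2.85 and 1.54, and the interfollicular basal list has a median of -0.70.

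Attachment genes had calls in both directions against the basal layer. Of 26 basement membrane and integrin genes tested, 3 rose, 4 fell and 19 did not pass, where 13.2% of all genes tested were called, with a median log2 difference of 0.02 (3 rose and 2 fell without replicate 1, and likewise without replicate 2). Col17a1, the hemidesmosomal collagen XVII, stood at 893, 1071 and 985 CPM in bulge-type cells and 1021, 1013 and 1002 CPM in resting basal cells (log2 difference -0.04 ± 0.13, adjusted p = 0.9). Itgb4, the hemidesmosomal integrin subunit, stood at 191, 198 and 134 CPM, against 248, 220.1 and 214 CPM (adjusted p = 0.15). The libraries overlapped for Col17a1, whereas the bulge-type libraries lay below the resting basal ones for Itgb4 without passing the test. Itga6, the partner of Itgb4, fell to 107, 138 and 97.1 CPM, against 267, 243 and 251 CPM (log2 difference -1.15 ± 0.19, adjusted p = 0.00014), and Itga3 fell by 1.41 ± 0.32 on the log2 scale (adjusted p = 0.0035). Hspg2, encoding the basement membrane proteoglycan perlecan, rose to 52.0, 46.0 and 48.5 CPM, against 4.40, 4.37 and 5.21 CPM (log2 difference 3.38 ± 0.33, adjusted p = 6.2e-07).

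Genes typical of the interfollicular basal layer fell for 9 of 16 tested and rose for 2, with a median log2 difference of -0.70 (7 fell and 2 rose without TMM scaling, 9 and 3 without replicate 2, 8 and 1 without replicate 3). Thy1, a glycolipid-anchored surface protein, stood at 37.6, 22.98 and 22.8 CPM in bulge-type cells and 239, 197 and 203 CPM in resting basal cells (log2 difference -2.94 ± 0.27, adjusted p = 8.3e-08). Mmp3, the protease stromelysin, stood at 11.6, 0 and 20.0 CPM, against 121, 50.2 and 73.5 CPM (log2 difference -3.00 ± 0.45, adjusted p = 8.8e-05). Ly6a, encoding SCA-1, stood at 8.67, 2.87 and 17.1 CPM, against 72.2, 60.5 and 68.1 CPM (log2 difference -2.81 ± 0.40, adjusted p = 3.5e-05). All bulge-type libraries lay below all resting basal libraries for these 3 genes. The chemokine gene Cxcl14 went against its list, at 560.4, 465 and 631 CPM, against 264, 386 and 204 CPM (log2 difference 1.01 ± 0.20, adjusted p = 0.001), and was not called without replicate 3 (0.71, adjusted p = 0.059). Sostdc1, given above among the Wnt genes, was the other rise of this list, with a larger difference than Cxcl14.

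Differentiation genes gave a mixed picture against the basal layer. Of 30 tested, 5 rose and 3 fell (median log2 difference -0.33), with 3 and 6 calls without replicate 2 and 2 and 10 among the cells with Lgr5 or Cd34. Ly6d stood at 1106, 2309 and 1741 CPM in bulge-type cells and 6074, 5608 and 6089 CPM in resting basal cells (log2 difference -1.78 ± 0.20, adjusted p = 1.9e-06), with a UMI in 48.4% of bulge-type and 98.9% of resting basal cells. Calml3, a calmodulin-like gene, rose to 136, 144 and 223 CPM, against 3.64, 12.7 and 12.4 CPM (log2 difference 4.10 ± 0.27, adjusted p = 4.9e-10), from 62 cells. Sbsn, encoding suprabasin, rose to 569, 1387 and 557 CPM, against 74.5, 181 and 246 CPM (log2 difference 2.34 ± 0.31, adjusted p = 1.4e-05), with 31.4% of its UMIs in a single cell. Krtdap, a keratinocyte differentiation gene, stood at 1254, 2128 and 1045 CPM, against 1477, 922 and 1473 CPM, with no call over all bulge-type cells (adjusted p = 0.63). Among those with Lgr5 or Cd34 the log2 difference was -3.83 (adjusted p = 1.65e-11). This p-value takes no account of the split, which was made after values were seen, and Krtdap differs strongly between its parts. The 6 spinous markers summed to 2742, 7255 and 2695 plain CPM in bulge-type cells, against 3513, 2890 and 4499 plain CPM in resting basal cells. A single bulge-type cell of replicate 2 held 980 of the 3171 UMIs of these markers.

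Of 18 genes of cell cycle entry and its inhibitors, 2 rose and 4 fell, and 5 rose and 3 fell without TMM scaling. Without replicate 1 the counts were 1 and 4, and without replicate 2 they were 2 and 2. The cyclin gene Ccnd2 fell to 335, 169 and 303 CPM in bulge-type cells, against 631, 629 and 699.9 CPM in resting basal cells (log2 difference -1.29 ± 0.21, adjusted p = 0.00018), Myc fell by 1.20 ± 0.21 on the log2 scale (adjusted p = 0.00037), and Ccnd3 rose by 1.47 ± 0.20 (adjusted p = 1.9e-05). Of 23 genes of DNA replication and mitosis 12 rose (median log2 difference 1.33), with 7 calls without replicate 1 and 5 without replicate 2. The count was 3 of 19 without the top cell of each gene, 2 of 15 with cells thinned to 3000 UMIs (2 of 9 with the classes kept) and 1 of 23 at the mitochondrial limit of 5%. Over all genes tested, rises numbered 529 of 10291, 408 of 8139 (430 of 6567 with the classes kept) and 309 of 10797 in these settings. By edgeR's test the count for replication and mitosis genes was 0 of 20 among bulge-type cells with 3 or more rule genes (3 at an unadjusted p under 0.05, median log2 difference 0.28) and 0 of 20 among those with Lgr5 or Cd34 (0 at an unadjusted p under 0.05, median -0.16). Birc5, the mitotic protein survivin, stood at 101, 51.7 and 25.7 CPM, against 2.68, 2.59 and 4.96 CPM (log2 difference 3.95 ± 0.72, adjusted p = 0.00057), from 6 cells. The resting basal class excludes cycling cells by its rule, and the bulge-type class does not. Without the 5 bulge-type cells that had 2 or more UMIs of 5 cycle genes, 0 of 19 genes of replication and mitosis were called by edgeR's test (1 at an unadjusted p under 0.05, median -0.51) and Birc5 had a log2 difference of -0.76 (adjusted p = 0.887), and it was not called with cells thinned to 3000 UMIs either (1.40, adjusted p = 0.28).

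Stress, metabolic and immune genes had calls in both directions. Of 20 immediate early and heat shock genes 2 rose and 6 fell, but 4 rose and 3 fell without TMM scaling, 3 fell without replicate 1, and 3 fell without replicate 2. Ier2, an immediate early gene, fell to 173, 385 and 374 CPM in bulge-type cells, against 591, 986 and 836 CPM in resting basal cells (log2 difference -1.39 ± 0.19, adjusted p = 2.0e-05). Of 18 glycolysis genes 2 rose and 4 fell (2 and 2 without TMM scaling, 1 and 3 without replicate 1 and without replicate 3), among them Hk2, encoding hexokinase 2, with a rise of 1.88 ± 0.26 (adjusted p = 2.0e-05), and Ldha, encoding lactate dehydrogenase A, with a difference of -0.71 ± 0.14 (adjusted p = 0.0011). Of 15 MHC class I and immune regulatory genes 3 rose and 4 fell (3 and 2 without replicate 2, 2 and 4 without replicate 3). Cd47, a signal against phagocytosis, rose by 1.12 ± 0.13 (adjusted p = 3.8e-06), the cytokine gene Il34 fell to 34.7, 40.2 and 40.0 CPM, against 116, 143 and 136 CPM (log2 difference -1.78 ± 0.20, adjusted p = 2.0e-06), and B2m, the light chain of MHC class I, stood at 89.5, 109 and 99.9 CPM, against 59.9, 129 and 84.6 CPM (adjusted p = 0.71). Of 12 retinoid genes 4 rose. Among them Cyp26b1, an enzyme that degrades retinoic acid, rose by 3.55 ± 0.64 (adjusted p = 0.00045). Of 18 upper follicle and sebaceous genes 7 rose and 1 fell, with 4 rises without replicate 3. The cystatin gene Cst6 led this list at 4385, 393 and 217 CPM, against 31.6, 48.5 and 49.3 CPM (log2 difference 4.86 ± 0.67, adjusted p = 2.3e-05), but 86.7% of its UMIs lay in a single cell of replicate 1. Of 4 genes of the root sheaths and the hair shaft with enough UMIs to be tested 2 rose, and 1 was called where any single library was left out. With cells thinned to 3000 UMIs, rises numbered 7 of 26 in the BMP, activin and TGF-beta list (6 of 23 with the classes kept), 4 of 15 in the FGF and EGF list (4 of 14) and 4 of 18 in the upper follicle and sebaceous list (5 of 16). Over all genes tested, 408 of 8139 rose with thinned cells and 430 of 6567 with the classes kept.

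KRT79 marks cells of the upper follicle and of the sebaceous duct in mouse. Against the Krt79/Defb6-high cells 1451 of 10941 genes were higher in bulge-type cells (13.3%) and 1815 were lower (16.6%), 29.9% in all, and 2465 and 1093 without TMM scaling. These cells were fewest in replicates 1 and 2 (19 and 25 cells, against 76 in replicate 3), and without replicate 3 the calls numbered 1380. The Krt79/Defb6-high cells were largely suprabasal, with a median Krt5 and Krt14 share of 0%, 0.07% and 0.01% of UMIs. Their 6 spinous markers summed to 31770, 27195 and 38809 plain CPM, against 37388, 34181 and 37140 plain CPM in spinous cells. How far the differences below follow layer or place in the follicle was not tested. Of the attachment genes, 22 of 26 basement membrane and integrin genes rose, a median log2 difference of 2.90 (2.81 with genes at 0 UMIs set at their bound). Col17a1 stood at 893, 1071 and 985 CPM in bulge-type cells and 87.3, 51.9 and 53.9 CPM in Krt79/Defb6-high cells (log2 difference 3.96 ± 0.17, adjusted p = 2.1e-12). All 30 differentiation genes fell (median -3.43), and 13 of 20 immediate early and heat shock genes fell while 3 rose.

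Follicle genes were shared between these classes only in part. Of the transcription factors 16 of 22 rose and 3 fell (9 and 2 without replicate 3), of the hedgehog genes 7 of 9 rose, and of the BMP, activin and TGF-beta genes 14 of 33 rose and 2 fell (9 and 1 without replicate 1, 4 rises without replicate 3). Lhx2 stood at 95.3, 118 and 126 CPM in bulge-type cells and 8.12, 9.88 and 2.25 CPM in Krt79/Defb6-high cells (log2 difference 4.47 ± 0.51, adjusted p = 2.0e-06). Krt15 stood at 1768, 2102 and 1835 CPM, against 542, 249.6 and 129 CPM (log2 difference 2.72 ± 0.39, adjusted p = 1.7e-05). The groups were separate for both genes. Krt17 stood at 3218, 994 and 1265 CPM, against 1423, 141 and 871 CPM, with overlapping libraries and no call (1.17 ± 0.55, adjusted p = 0.12), while without replicate 2 it was called higher at 0.86 (adjusted p = 0.00667) and among the cells with Lgr5 or Cd34 it was lower (-3.55, adjusted p = 0.00217). Cd200 stood at 83.8, 97.6 and 99.9 CPM, against 40.6, 210.0 and 94.4 CPM (adjusted p = 0.71), and the upper follicle gene Plet1 at 46.2, 34.5 and 57.1 CPM, against 50.7, 51.9 and 47.2 CPM (adjusted p = 0.89). Both were lower with cells thinned to 3000 UMIs, which changed the cells and dropped the Krt79/Defb6-high profile of replicate 1 (Cd200 -1.34, adjusted p = 0.0049, and Plet1 -2.35, adjusted p = 3.2e-05). With the classes kept and thinned neither was called (Cd200 -0.47, adjusted p = 0.349, and Plet1 -1.01, adjusted p = 0.06). With only the cells with Lgr5 or Cd34 set against the Krt79/Defb6-high cells, Cd200 was called lower (-1.21, adjusted p = 0.0125). Sox9 and Fst, which chose the bulge-type cells, stood at 99.4, 66.7 and 52.4 CPM and 109.6, 47.0 and 25.5 CPM in Krt79/Defb6-high cells, and 37.5% of those cells had a Sox9 UMI.

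By the rule for naming genes, the largest rises against the Krt79/Defb6-high cells were in 8 genes with 0 UMIs there. They were Wfdc3 (at least 100.4-fold higher), Fn1 and Col8a2 (at least 32.8-fold each), Igfbp7 (at least 24.9-fold), Nog (at least 22.8-fold), the collagen gene Col5a2 and 6330403K07Rik (at least 19.2-fold each), and Dcn, encoding decorin (at least 71.2-fold). Dcn came from 4 cells, of which 1 held 71.0% of its UMIs, and its call was lost without the cells holding fibroblast or melanocyte transcripts (4.66, adjusted p = 0.428). The 8 largest falls were in genes with 0 UMIs in the bulge-type cells. Sprr1b and Sprr1a, small proline-rich proteins of the cornified envelope, were at least 131-fold and 81.0-fold lower, and Krt16, a stress keratin, at least 52.1-fold lower. Sprr1b stood at 128, 193 and 524 CPM in Krt79/Defb6-high cells and was highest in replicate 3. Ceacam19, Bspry and Slc39a11 were at least 20.8-fold, 10.9-fold and 9.99-fold lower, and the calls of Gadl1 (-8.83, adjusted p = 0.0633) and Slc6a19 (-7.81, adjusted p = 0.137) were lost without replicate 3. With cells thinned to 3000 UMIs, and so without the Krt79/Defb6-high profile of replicate 1, the calls of Fn1 (8.58, adjusted p = 0.066), Nog (8.61, 0.0595), Ceacam19 (-5.47, 0.528), Gadl1 (-5.38, 0.546), Bspry (-6.92, 0.197) and Slc6a19 (-5.06, 0.603) were lost. With the classes kept and thinned, Fn1 (8.45, adjusted p = 0.0015), Ceacam19, Gadl1 and Bspry were called, Slc6a19 was not (-6.22, adjusted p = 0.12), and Nog had too few UMIs to be tested.

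Against spinous cells, the first layer above the basal cells, 1990 genes were higher in bulge-type cells (18.2%) and 2322 were lower (21.2%), 39.4% in all, with 3544 and 1157 without TMM scaling and 2644 and 1745 with DESeq2. Bulge surface and matrix genes rose for 14 of 17 (median log2 difference 4.93), basement membrane and integrin genes rose for 23 of 26 and fell for 1, and all 30 differentiation genes fell (median -3.39). Krt15 stood at 1768, 2102 and 1835 CPM in bulge-type cells and 9.11, 48.6 and 20.3 CPM in spinous cells (log2 difference 6.23 ± 0.43, adjusted p = 3.2e-10). Ly6d stood at 1106, 2309 and 1741 CPM, against 10988, 10212 and 10549.9 CPM (log2 difference -2.62 ± 0.21, adjusted p = 2.4e-09). Against granular cells, the last living layer, 3708 genes were higher (33.9%) and 3314 were lower (30.3%), 64.2% in all, and 6317 and 1705 without TMM scaling, when the median log2 difference of all genes was 1.49. Of the differentiation genes 28 of 30 fell there (median -4.89) and 23 of 26 basement membrane and integrin genes rose (median 4.11). Barx2 stood at 202, 215 and 259.8 CPM in bulge-type cells and 199, 226 and 303 CPM in granular cells, with overlapping libraries and no call (log2 difference -0.11 ± 0.20, adjusted p = 0.64), but it was called higher at 1.13 without TMM scaling and at 0.45 (adjusted p = 0.0392) with the classes kept and thinned.

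The bulge-type cells were not uniform. They were split by a UMI of Lgr5 or Cd34, the markers most closely tied to the bulge, into 66 cells with either (13, 30 and 23 per library) and 62 with neither (22, 18 and 22). Both genes belong to the rule and the split was made after values were seen, so the plain CPM levels that follow are a description with no test. The p-values given for the cells with Lgr5 or Cd34 against other classes take no account of this choice. The median depth was 4047 UMIs in the cells with Lgr5 or Cd34 and 5049.5 in those with neither, and the mitochondrial shares were 6.22% and 5.08%. Tgm5 stood at 476, 274 and 440.0 CPM in the cells with Lgr5 or Cd34, against 116, 70.4 and 76.4 CPM in the cells with neither. S100a4, a calcium-binding protein, stood at 684, 374 and 354 CPM, against 12.2, 62.5 and 68.7 CPM, and Sparc at 366, 457 and 291 CPM, against 36.6, 7.82 and 99.3 CPM. In each library the cells with Lgr5 or Cd34 had the larger value of these 3 genes. Lhx2 stood at 269, 258 and 244 CPM, against 67.1, 78.2 and 99.3 CPM, Tbx1 at 256, 216 and 134 CPM, against 54.9, 31.3 and 30.5 CPM, and the Wnt antagonist Sfrp1 at 134, 191 and 78.6 CPM, against 18.3, 7.82 and 15.3 CPM. The chemokine gene Cxcl14 stood at 1538, 1313 and 1344 CPM, against 415, 31.3 and 382 CPM, and replicate 2 held the widest gap. Krt15 stood at 3748, 3707 and 2931 CPM, against 1861, 2236 and 2062 CPM.

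Other genes had the larger values in the cells with neither gene. Krtdap stood at 61.0, 125 and 189 CPM in the cells with Lgr5 or Cd34, against 2618, 5676 and 2612 CPM in those with neither, and Ly6d at 378, 515 and 699 CPM, against 2148, 5801 and 3979 CPM. A single cell held 25.4% of the Krtdap UMIs of the cells with neither, and in replicate 2 a UMI of it was found in 11 of 18 such cells. Claudin 1, of tight junctions (Cldn1), stood at 12.2, 83.1 and 47.1 CPM, against 207, 305 and 191 CPM, and Aldh3a1, an aldehyde dehydrogenase, at 61.0, 58.2 and 23.6 CPM, against 513, 328 and 611 CPM. The chemokine gene Ccl27a stood at 24.4, 125 and 62.9 CPM, against 781, 446 and 672 CPM. No library went the other way for these 5 genes. Without the 12 cells described next, the cells with neither had pooled values of 3354 CPM of Krtdap and 3748 CPM of Ly6d. Of MHC class I, H2-K1 stood at 24.4, 83.1 and 62.9 CPM, against 134, 274 and 267 CPM, and B2m at 48.8, 66.5 and 94.3 CPM, against 165, 235 and 176 CPM. Nfatc1 stood at 73.2, 33.2 and 0 CPM, against 116, 141 and 145 CPM. Tcf7l1 had a UMI in 5 of the cells with Lgr5 or Cd34 and 9 of those with neither (pooled 15.2 and 21.3 CPM). Follicle genes did not all follow the split. Barx2 stood at 281, 266 and 283 CPM, against 287, 336 and 420.0 CPM, Ptn at 964, 549 and 778 CPM, against 842, 414 and 924 CPM, and Gli1 at 24.4, 33.2 and 47.1 CPM, against 24.4, 46.9 and 38.2 CPM. Fzd2 had pooled values of 127 CPM in the cells with Lgr5 or Cd34, against 30.8 CPM in those with neither, Dkk3 131 CPM, against 28.4 CPM, the collagen gene Col18a1 158 CPM, against 37.8 CPM, and Cd200 75.9 CPM, against 173 CPM. Sox9 and Fst were the only rule genes in 20 of the cells with neither. Of these 20, a UMI of Ly6d was found in 18, of Krtdap in 18, of Krt15 in 17 and of Lhx2 in 3. With only the cells with Lgr5 or Cd34 set against resting basal cells, 456 of 10605 genes tested were higher and 655 lower, and 9 calls were lost among the genes named here. They were those of Nfatc1, Lrig1 and Tead1, given above, and of Krt17 (1.97, adjusted p = 0.374), Tgfb2 (1.77, adjusted p = 0.177), Ptch1 (1.41, adjusted p = 0.27), Pthlh (4.67, adjusted p = 0.0549), Birc5 (1.19, adjusted p = 0.793) and Cst6 (0.24, adjusted p = 0.789). In these cells 6 of 29 BMP, activin and TGF-beta genes, 4 of 17 FGF and EGF genes, 2 of 6 follicle keratins and 2 of 10 retinoid genes rose, and by edgeR's test 0 of 18 upper follicle and sebaceous genes were called (3 at an unadjusted p under 0.05).

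**Figure D4:**
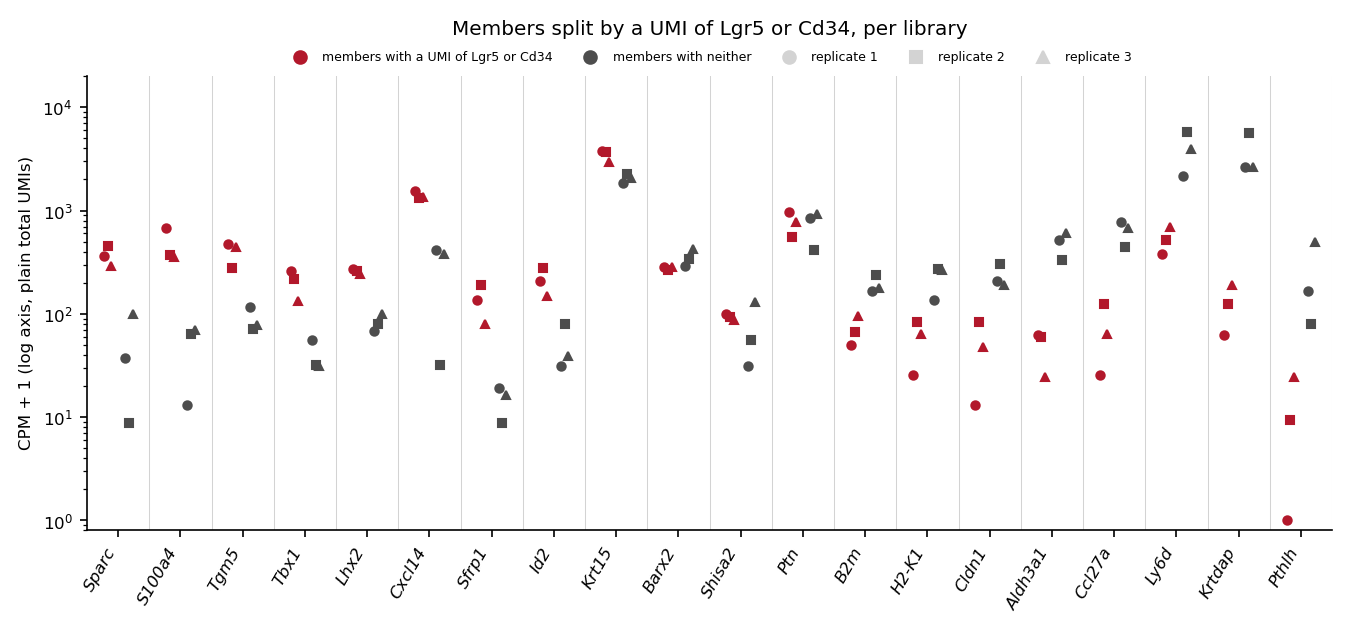
Plain CPM + 1 (log axis) of 20 genes in the 66 bulge-type cells with a UMI of Lgr5 or Cd34 (red) and the 62 with neither (grey), with 1 point per library. For Sparc, S100a4 and Tgm5 the red point lies above the grey one in every library, for Barx2 and Ptn they lie close together, and for Krtdap, Ly6d, Ccl27a and Pthlh the red point lies below.

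Krt17 marked a small set among the cells without Lgr5 and Cd34. Of its 1903 UMIs in bulge-type cells, 1826 (96.0%) lay in 12 cells with 10 or more Krt17 UMIs, of which 5 came from replicate 1, 1 from replicate 2 and 6 from replicate 3, and 88 cells had 0. The highest of the 12 had 608 Krt17 UMIs, the lowest had 17 and the next cell below the limit had 9, and 0 of the 12 had a UMI of Lgr5 or Cd34. Pooled over libraries, Fst stood at 1471 plain CPM in the 12 cells, against 306 in the other 116, and Aspn at 374, against 20.7. Pthlh stood at 1083 plain CPM, against 36.9, Tgfb2 at 308, against 23.6, Nfatc1 at 388, against 54.6, and Cd200 at 428, against 97.4. The pooled values of all 6 genes were several times as large in the Krt17-high cells, but in replicate 2 Tgfb2 stood at 0, against 41.6, in replicate 1 Cd200 stood at 186, against 104, and 51.7% of the Nfatc1 UMIs of the 12 cells lay in 1 of them. Fst and Aspn belong to the rule. Of the 12 cells 9 had 0 Krt15 UMIs, against 3 of the other 116, and 9 had 0 Krt14 UMIs, against 2 of the other 116. A single cell with 22 Krt17 UMIs held 53 of the 61 Krt14 UMIs and 12 of the 22 Krt15 UMIs of the set. Pooled, Krt5 stood at 5094 plain CPM, against 3126. Median depth was 4608.5 UMIs in the 12 cells and 4242.5 in the other 116. By library it differed, at 10533, 7851 and 3719.5 UMIs, against 5982, 3552 and 4474. The limit of 10 Krt17 UMIs was not scaled to depth. With 12 cells, and a single one from replicate 2, these values describe the cells and give no spread.

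**Figure D5:**
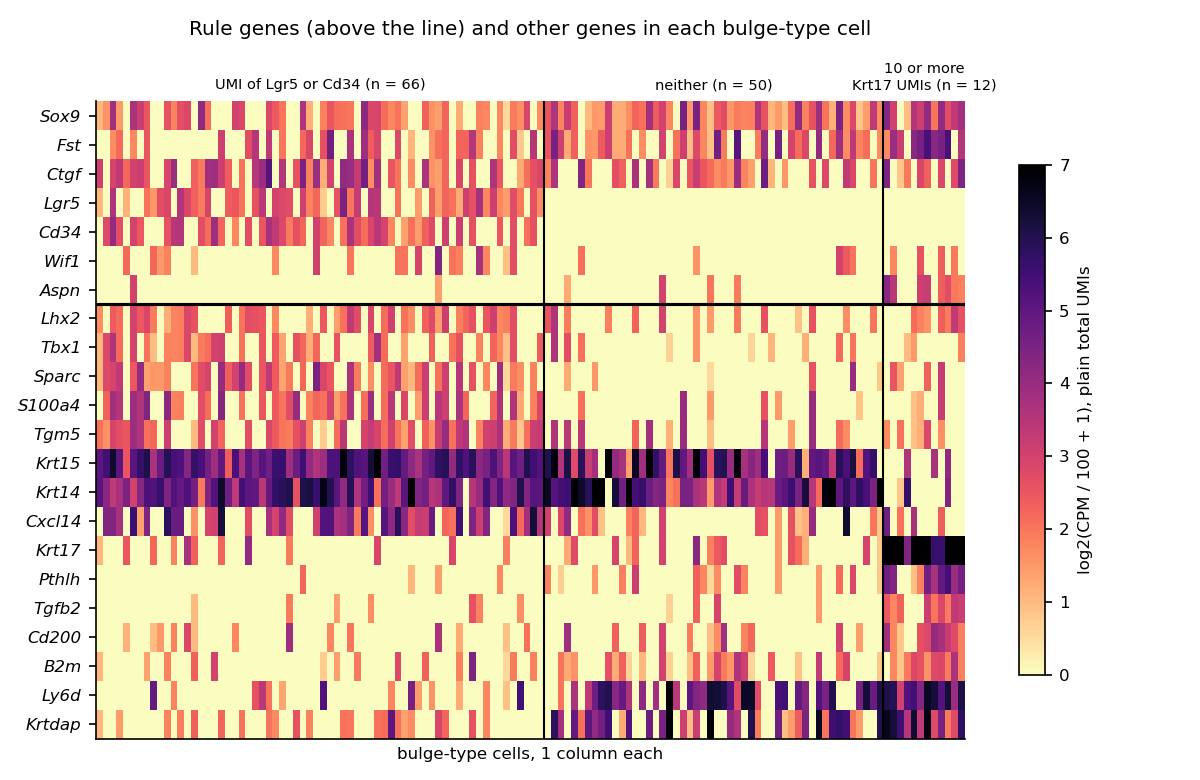
Rule genes and other genes (rows) in each of the 128 bulge-type cells (columns), coloured by log2(CPM / 100 + 1) on plain total UMIs, in 3 blocks: 66 cells with a UMI of Lgr5 or Cd34, 50 with neither and under 10 Krt17 UMIs, and 12 with 10 or more Krt17 UMIs. Krtdap and Ly6d are found in more of the cells with neither, and the last block held 1826 of the 1903 Krt17 UMIs.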

How the data were processed

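Single-cell libraries of the 3 replicates were made with a 5-prime immune profiling kit and sequenced, and the authors deposited UMI counts per gene and cell barcode, made with Cell Ranger 3.1.0 on mm10, per the submitters' processing notes. Counts of 31053 genes were used as deposited. Cells with 500 or more genes and a mitochondrial share of 10% or less were kept. Granular cells (Lor at 1% of UMIs), Krt79/Defb6-high cells and bulge-type cells were set apart in that order, then resting basal cells (Krt5 and Krt14 at 0.5% or more, under 2 UMIs of 5 cycle genes) and spinous cells (Krt1 and Krt10 at 0.5% or more, Krt5 and Krt14 below it). Doublets were marked with Scrublet in scanpy 1.11.5 (Python 3.11.15) and kept.

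UMIs were summed per library and class into 15 profiles and fitted together with edgeR 4.0.16 (R 4.3.3): filterByExpr, TMM, the quasi-likelihood test with the library as a block, Benjamini-Hochberg adjustment over all genes tested and calls at 0.05. The 19 genes of the class rules were not tested. Errors beside log2 differences are standard errors. The script was tested on simulated data. Classes of a library come from the same suspension, so the block is given by the design; deviations of bulge-type and resting basal profiles of the same library correlated at 0.197, 0.137 and -0.0168.

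Named genes are the 15 largest rises and falls against resting basal cells, and the 8 against Krt79/Defb6-high cells, among those called with 1 direction in all libraries and 20 CPM in the higher class, besides examples of each list. The members and lists were chosen with earlier results of these data known. DESeq2 1.42.0 and other settings served as alternatives.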

Additional observations from a re-analysis of the deposited data

How the results depend on the processing

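With cells thinned to 3000 UMIs, which took out cells and the Krt79/Defb6-high profile of replicate 1 and tested 8139 genes, 408 genes were higher in bulge-type than in resting basal cells, and the calls numbered 498 against Krt79/Defb6-high, 2351 against spinous and 4263 against granular cells. With the classes kept and thinned (6567 genes tested), 430 were higher and 425 lower, with 1247, 2211 and 4071 calls. With classes chosen on 50% of the UMIs, they were 375 higher and 355 lower against resting basal, 1643 against Krt79/Defb6-high and 2680 against spinous cells. At a mitochondrial limit of 5%, 309 were higher and 253 lower, with 1382 and 1902 calls against Krt79/Defb6-high and spinous cells, and the mean share of bulge-type cells was 0.924%, against 1.55% when 3 or more rule genes were asked. That limit dropped the profile of replicate 1, which then held under 10 bulge-type cells. Without TMM, 345 were lower than in resting basal cells, and the cells with Lgr5 or Cd34 alone gave 456 higher. Leaving out 1 library gave 439 to 561 higher, 353 to 409 lower, 1380 to 2702 against Krt79/Defb6-high cells, 3173 to 3492 against spinous cells and 5794 to 6204 against granular cells. Without the replicate block the calls were 716 higher and 594 lower, 3213, 4216 and 7030, and Krt15 (adjusted p = 0.0929) and Wnt4 (0.0564) were no longer called. Directions that turned were those of Birc5 without cycling cells (-0.76), of Krtdap (-3.83) and, against Krt79/Defb6-high cells, Krt17 (-3.55) with Lgr5 or Cd34 cells only, and of Barx2 against granular cells without TMM (1.13) and with the classes kept and thinned (0.45). The cause was not tested. Of 122 called gene results, 76 kept their direction and call under every alternative that tested them, 25 lost the call at the mitochondrial limit of 5%, 10 with thinned cells (3 with the classes kept) and 10 with DESeq2, among them Krt15 (0.0749), Itga3 (0.0507), Fn1, Cck, Cald1, Fstl1 and 6330403K07Rik. Sparse genes were left out of some alternatives: against resting basal cells Col1a2 was tested in 13 and Gli1 in 15, where the highest number was 19. Itgb4 was called lower with no low-count filter (-0.45, adjusted p = 0.0388), and Krtdap higher against resting basal cells with little Krt1 and Krt10 (0.82, adjusted p = 0.033).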
